A study of Arabidopsis thaliana with 6 samples.

Results

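The genes carried by the chloroplast and mitochondrial genomes of Arabidopsis thaliana were compared between wild-type and mee45-1 siliques. Members were all identifiers of the authors' expression table that belong to either organelle genome and had a mean count above 0 in at least 1 genotype. Of 210 organelle identifiers listed, 152 met this rule. The chloroplast gave 71 of its 88 identifiers and the mitochondrion 81 of its 122, among 31608 genes in the table, of which 25434 had a count in either genotype and were tested by the authors.

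The groups were Col-0, the wild-type accession, and the mutant mee45-1 of MEE45, a gene of the B3 family of DNA-binding proteins, called mee45 from here on. Each was sampled 4 days after pollination with 3 libraries of polyadenylated RNA, and the labels state no further treatment or allele. The labels name the tissue as silique in one place and as seed in another, speak of repeats in one place and of duplicate collection in another, and do not describe the mutation. Whether the repeats were separate plants is not stated, so the authors' p-values measure the spread between libraries, which may be technical. The tables give 1 mean per genotype, made by the authors, so no spread between libraries can be given for any level below.

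Plant cells hold 3 genomes. The chloroplast genome encodes core subunits of the photosystems, the cytochrome b6f complex, the ATP synthase, the NDH complex, the large subunit of Rubisco, ribosomal proteins and a bacterial-type RNA polymerase. That polymerase works with nuclear-encoded sigma factors and associated proteins, and phage-type polymerases encoded in the nucleus transcribe other chloroplast genes and the whole mitochondrial genome. The mitochondrial genome encodes subunits of the respiratory chain, factors of cytochrome c maturation, ribosomal proteins, a maturase that helps to splice introns, and many open reading frames of no known function. Most organelle transcripts lack a poly(A) tail, and in plant organelles such a tail marks RNA for decay. Organelle reads in a library of polyadenylated RNA are therefore a small and selected sample of the organelle transcripts.

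The mean depth was 20242476 counts per library in Col-0 and 20530953 in mee45. MEE45 itself had 62 summed counts in the 3 wild-type libraries and 3 in the mutant ones, and the authors' deposited table gives it an adjusted p of 4.34e-06. All 8 marker genes chosen for silique wall, seed coat, endosperm, embryo and pollen had counts in both genotypes. Their summed FPKM (fragments scaled by transcript length and library size) was 967 in Col-0 and 909 in mee45. At an adjusted p under 0.05 in the authors' deposited table, 3 of the 8 were higher in mee45 and 3 were lower. That table calls 6.67% of all tested genes higher and 9.15% lower. The higher ones were SHP1 and IND of the silique wall and AGL62 of the endosperm. The lower ones were TT10 of the seed coat, LEC1 of the embryo and VEX1 of pollen. BAN, also of the seed coat, did not pass in that deposited table, with 466 FPKM in Col-0 and 573 in mee45 (adjusted p of 0.0683). FUL, also of the silique wall, did not pass there either, with 60.7 and 68.1 FPKM (adjusted p of 0.489). The 2 seed coat markers differed in direction, since TT10 went from 274 to 89.7 FPKM. The part of the markers in the results below was not tested. In bulk tissue, fewer cells or organelles of a kind and less RNA in each cannot be told apart.

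Chloroplast transcripts were a larger share of the mee45 libraries. Summed over the 71 genes, the authors' mean count per library was 1988 for Col-0 and 3966 for mee45, or 0.00982% and 0.0193% of all counts. At equal depth the mee45 sum was 1.97 times the Col-0 sum, with an exact 95% counting interval of 1.91 to 2.03. Mitochondrial transcripts were rarer in both genotypes. Their sum over 81 genes was 390 mean counts per library in Col-0 and 544 in mee45, a ratio of 1.37 at equal depth with an interval of 1.27 to 1.48. The chloroplast sum was 5.10 times the mitochondrial sum in Col-0 and 7.29 times in mee45. These intervals cover counting error only, since amplified reads are not independent molecules and no spread between libraries enters them, and neither the sums nor the difference between the organelles could be tested between genotypes.

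**Figure D1:**
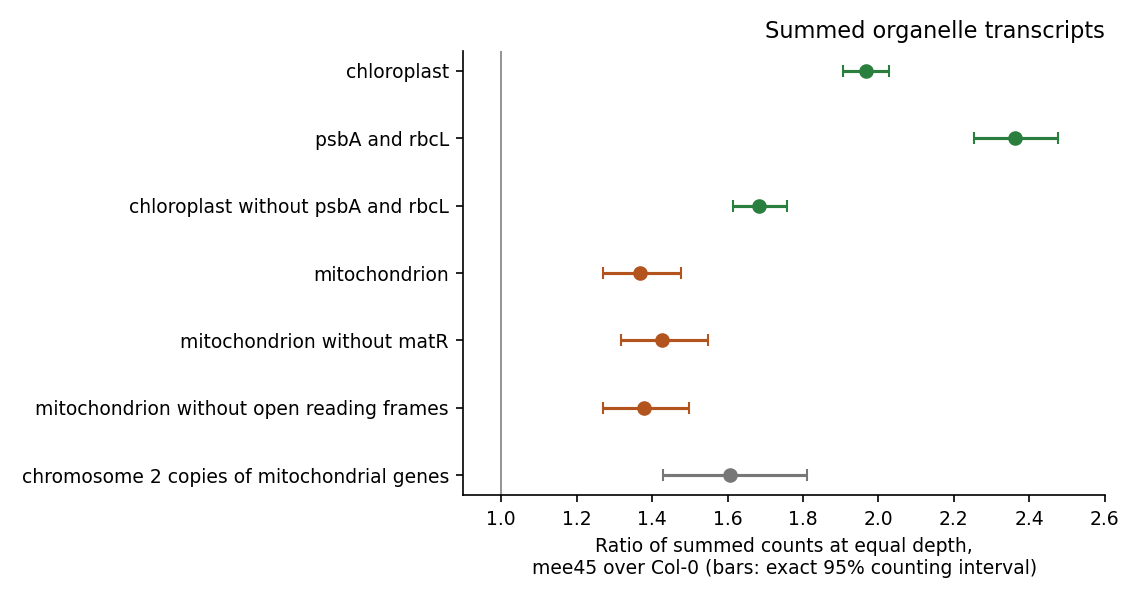
Ratio of summed mean counts at equal depth, mee45 over Col-0 (horizontal axis, linear), for sets of organelle genes and for the nuclear chromosome 2 copies of mitochondrial genes. Points are ratios, bars are exact 95% counting intervals without the spread between libraries, and the vertical line marks 1. The chloroplast sum stands at 1.97 and the mitochondrial sum at 1.37.

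Past an adjusted p of 0.05 per the authors' deposited table, 7 of the 71 chloroplast identifiers were higher in mee45 and 0 were lower. Over all tested genes the same table calls 6.67% higher and 9.15% lower, or 15.8% in either direction. At an unadjusted p under 0.05 it holds 20 chloroplast identifiers higher and 1 lower, where 11.4% and 13.5% of all tested genes were higher and lower. Of the 81 mitochondrial genes, 0 were higher and 1 was lower at the adjusted threshold in the authors' deposited table, and 7 were higher and 2 lower at the unadjusted one. At equal depth 61 of 71 chloroplast genes had the higher mean in mee45, or 85.9%, as did 51 of 81 mitochondrial genes, against 50.0% of all tested genes. These genes share libraries, transcripts and in part reads, and are not independent.

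All 7 called chloroplast identifiers were among the 33 with a mean count of at least 10 over both genotypes, a level at which 7.89% of all tested genes were called higher. Of these 33, 32 had the higher mean in mee45, with a median log2 ratio of FPKM of 0.74 and a range of -0.01 to 1.93. All 15 mitochondrial genes at that level were on the mee45 side, with a median of 0.46 and a range of 0.02 to 1.37. Over all tested genes at that level, 50.9% were on the mee45 side. With a minimum of 1 mean count in either genotype, the median log2 ratio was 0.70 over 60 of the 63 chloroplast genes and 0.46 over 47 of the 51 mitochondrial genes. The genes left out of these medians had no count in 1 genotype. Where such a gene had more than the floor of 3 summed counts in the other genotype, it could be placed at its bound, which brought the medians to 0.66 and 0.43. The other 8 chloroplast and 30 mitochondrial genes stayed under 1 mean count in both genotypes.

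**Figure D2:**
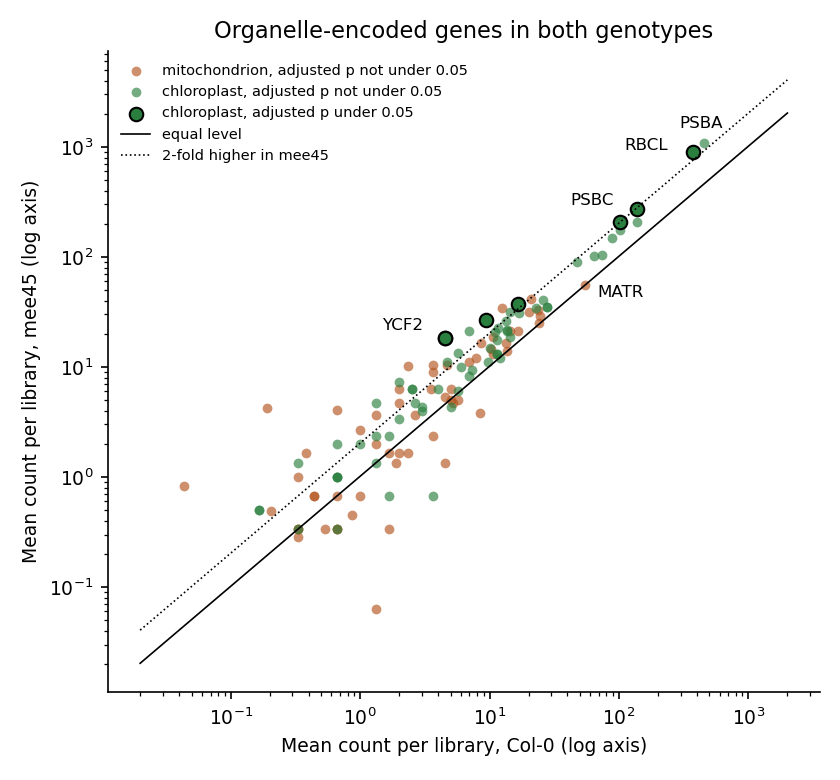
Authors' mean count per library in Col-0 (horizontal) and mee45 (vertical), both on log axes, for organelle genes counted in both genotypes, so that genes at 0 in 1 genotype are not drawn. The solid line marks equal levels at equal depth and the dotted line a 2-fold higher level in mee45. Outlined points have an adjusted p under 0.05 in the authors' deposited table. Most green chloroplast points lie above the solid line, with PSBA and RBCL at the top.

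PSBA and RBCL were the most abundant chloroplast genes in both genotypes. PSBA encodes the D1 protein of the photosystem II reaction centre. Its mean count was 456 in Col-0 and 1094 in mee45, or 21.1 and 50.1 FPKM. RBCL encodes the large subunit of Rubisco, the enzyme that fixes carbon dioxide. Its mean count was 374 in Col-0 and 894 in mee45, or 12.7 and 30.2 FPKM. The pair had nearly the same log2 ratio of FPKM, 1.25 for each, but RBCL passed the threshold in the authors' deposited table with an adjusted p of 0.00830 and PSBA did not, with an adjusted p of 0.0856. Together they made up 41.8% of chloroplast counts in Col-0 and 50.1% in mee45. Their summed ratio was 2.36, with a counting interval of 2.25 to 2.47. The other 69 chloroplast genes had a summed ratio of 1.68, with an interval of 1.61 to 1.76. These intervals leave out the spread between libraries, so a difference between the pair and the rest was not tested. The pair was set apart after its values were seen. The 10 most abundant chloroplast genes were the same in both genotypes and held 79.7% of Col-0 chloroplast counts and 83.0% of those in mee45.

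The PSBA upstream region holds a bacterial-type promoter pattern of the kind read by the chloroplast's own polymerase. The pattern searched was TTGACA, then 15 to 21 bases of any kind, then TANNNT, on the strand of the gene only and within 250 bases before the start codon. It was found for 3 of 78 chloroplast gene names, or 3.85%, in the RefSeq chloroplast sequence of TAIR10.1. The 3 matches are shown because PSBA is the most abundant member and its match can be set beside those of ATPF, a subunit of the ATP synthase, and YCF1. Capitals mark the fixed ends of the pattern. The matches begin 115, 239 and 115 bases before the start codon.
psbA, chrPltd:1530-1559, minus strand: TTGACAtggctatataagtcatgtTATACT
atpF, chrPltd:13006-13037, minus strand: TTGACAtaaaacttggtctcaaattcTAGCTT
ycf1, chrPltd:129332-129359, minus strand: TTGACAtaagagatgtcgtttcTAGTCT
The ycf1 match lies in the inverted repeat and recurs in the other copy. A match describes the letters alone, and their use in siliques was not tested. The mean count of ATPF was 11 in Col-0 and 20.7 in mee45, a log2 ratio of FPKM of 0.93 that did not pass the threshold in the authors' deposited table (adjusted p of 0.278).

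Photosystem II genes had a summed ratio of 2.15 over 7 members, of which 1 passed the threshold. PSBC encodes CP43, an inner antenna protein. Its mean count was 139 in Col-0 and 272 in mee45, a log2 ratio of 0.96 with an adjusted p of 0.0486 per the authors' deposited table. PSBD, which encodes the D2 reaction centre protein, had 47.7 and 89.3 mean counts and did not pass in the authors' deposited table (log2 ratio 0.90, adjusted p of 0.178). PSBB, which encodes the antenna protein CP47, had 88.7 and 149 mean counts (0.74, adjusted p of 0.233 per the authors' deposited table). The members of low count were mixed, with PSBK and PSBN at a higher mean in Col-0 and PSBE at a higher mean in mee45, each at fewer than 2 mean counts. The PSBD and PSBC reading frames overlap by 53 bases, so reads there belong to both genes. The overlap is printed in capitals, with 12 bases on each side, because it joins a called and an uncalled gene of 1 transcript.
psbD psbC overlap, chrPltd:33708-33784, plus strand: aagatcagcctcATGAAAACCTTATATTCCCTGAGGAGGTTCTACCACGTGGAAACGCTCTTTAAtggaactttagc

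Photosystem I genes and their assembly factors all had the higher mean in mee45, 5 of 5, with a summed ratio of 1.86. PSAB and PSAA encode the reaction centre pair of photosystem I and lie next to each other in a shared transcript. PSAB had 102 mean counts in Col-0 and 207 in mee45 and rose, with a log2 ratio of 1.01 and an adjusted p of 0.0259 per the authors' deposited table. PSAA had 102 and 175 mean counts, a log2 ratio of 0.79, and did not pass in the authors' deposited table (adjusted p of 0.181). The summed counts behind these means were 306 for PSAB and 305 for PSAA in Col-0, and a difference between the neighbours was not tested.

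Genes of electron transport and ATP synthesis had smaller summed ratios and no call. The cytochrome b6f genes, 3 of 3 with the higher mean in mee45, had a summed ratio of 1.75. PETB, which encodes cytochrome b6, had 17 and 30.7 mean counts, a log2 ratio of 0.84. The 6 ATP synthase genes had a summed ratio of 1.53. ATPB, the catalytic beta subunit, had 137 mean counts in Col-0 and 207 in mee45 (log2 ratio 0.57, adjusted p of 0.0938 per the authors' deposited table), and ATPA, the alpha subunit, had 63.7 and 102 (0.66, adjusted p of 0.152 in the same deposited table). ATPE, the epsilon subunit, follows ATPB in the genome. It had 12 mean counts in both genotypes, a log2 ratio of -0.01, and was the 1 chloroplast gene of at least 10 mean counts without a higher mean in mee45. The 12 NDH identifiers had a summed ratio of 1.52. Among them NDHF, a membrane subunit, went from 7 to 21.3 mean counts (log2 ratio 1.62, adjusted p of 0.0744 per the authors' deposited table), and NDHD, the most abundant, from 23 to 34.7 (0.58, adjusted p of 0.628 in the same deposited table).

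Among genes of the chloroplast's own gene expression, RPOC2 alone passed the threshold in the authors' deposited table. All 4 subunits of the bacterial-type RNA polymerase had the higher mean in mee45, with a summed ratio of 1.51. RPOC2, which encodes the beta double-prime subunit, had 16.7 mean counts in Col-0 and 37 in mee45 and rose, with a log2 ratio of 1.15 and an adjusted p of 0.0196 per the authors' deposited table. RPOB, the beta subunit and the most abundant of the 4, had 74 and 105 mean counts (0.49, adjusted p of 0.166 in the same deposited table). RPOA, the alpha subunit, had 9.67 and 11 (0.15, adjusted p of 0.990 in the same deposited table). Ribosomal protein genes had a summed ratio of 1.43 over 22 identifiers, 18 of them with the higher mean in mee45 and 0 called. RPL2 had 28 mean counts in Col-0 and 35.3 in mee45 for each of its copies, a log2 ratio of 0.31. RPS2, at 3.67 and 0.667 mean counts, was the 1 chloroplast gene with an unadjusted p under 0.05 on the Col-0 side, and its adjusted p was 0.158 in the authors' deposited table. MATK, a splicing factor encoded in a tRNA intron, had 14.3 and 31.7 mean counts (1.14, adjusted p of 0.164 in the same deposited table).

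**Figure D3:**
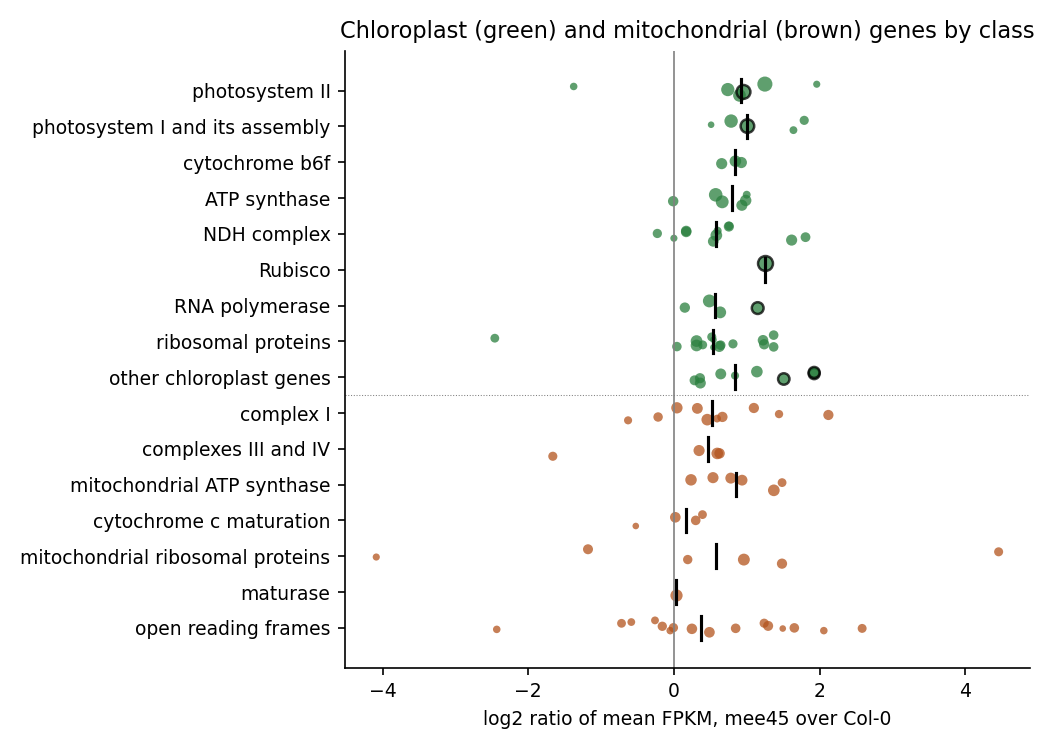
Log2 ratio of mean FPKM (mee45 divided by Col-0) for organelle genes of at least 1 mean count in either genotype and a count in both, by class. Each point is a gene, larger with its count on a log scale; black bars are class medians and outlined points have an adjusted p under 0.05 in the authors' deposited table. Chloroplast classes (green) lie mostly right of 0, and the mitochondrial open reading frames (brown) spread to both sides.

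The remaining calls were in YCF1 and YCF2, the longest chloroplast reading frames. Both encode proteins of the inner envelope that have been assigned to protein import, and both are expressed at a low level. YCF2 lies in the inverted repeat, so the genome holds 2 copies and the authors' table has 2 entries of equal value. Each had 4.5 mean counts in Col-0 and 18.2 in mee45, or 0.0333 and 0.127 FPKM, a log2 ratio of 1.93 with an adjusted p of 0.00903 and 0.00902 per the authors' deposited table. The coding sequences, at chrPltd:86474-93358 on the plus strand and chrPltd:145291-152175 on the minus strand, are identical over 6885 bases. The first 60 bases are printed because they show the identity that leaves reads without a unique copy.
ycf2 copy 1: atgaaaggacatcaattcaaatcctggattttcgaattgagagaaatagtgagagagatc
ycf2 copy 2: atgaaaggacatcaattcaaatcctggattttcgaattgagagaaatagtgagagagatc
In all, 7 genes have such pairs of entries, leaving 64 distinct chloroplast genes, and the 7 calls are 6 genes when each pair is counted once. YCF1 has a full-length entry, with 9.39 mean counts in Col-0 and 27.0 in mee45 (log2 ratio 1.51, adjusted p of 0.0259 per the authors' deposited table). Its partial entry across the repeat border, which shares sequence with it, had 7.28 and 9.46 (0.36, adjusted p of 0.966 in the same deposited table).

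Gene length went with detection. Of the 17 chloroplast identifiers at 0, 15 matched the RefSeq annotation, with coding lengths of 90 to 267 bases and a median of 117, and 12 were under 200 bases. Many encode small subunits of photosystem II, such as PSBI, PSBJ, PSBL and PSBF. The 67 matched members had a median coding length of 606 bases and a range of 132 to 6885, with 3 under 200. A count of 0 allows up to 3 counts summed over the libraries of a genotype. The longest run of A in the coding sequence, where oligo(dT) could bind, was 4 to 10 bases in the 10 most abundant chloroplast genes, with a median of 5, and 2 to 14 bases over all 82 matched identifiers, with a median of 6. It was 4 bases in PSBA, 5 in RBCL, 10 in ATPB and RPOB, 13 in RPOC2 and 14 in RPOA, and its part in the levels was not tested.

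Mitochondrial genes had low counts and few differences past the spread between libraries. MATR, the maturase encoded within an intron of NAD1, was the most abundant and had nearly equal means, 54.7 in Col-0 and 56 in mee45, a log2 ratio of 0.03 and a counting interval of the count ratio of 0.810 to 1.26. Without MATR the other 80 genes had a summed ratio of 1.43. Complex I genes had a summed ratio of 1.36 over 12 members. In complex I, the NADH dehydrogenase that feeds electrons into the chain, NAD4 had 24 and 25.3 mean counts (log2 ratio 0.04), NAD7 had 23.7 and 33 (0.46), and the first part of NAD5 had 13.3 and 16.7 (0.32). The largest log2 ratio among mitochondrial genes reaching 10 mean counts in either genotype was that of the second part of NAD2. Its mean count was 2.33 in Col-0 and 10.1 in mee45 (2.12, adjusted p of 0.165 per the authors' deposited table). The gene met this minimum in mee45 alone, so its rank depends in part on the minimum.

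The genes of complexes III and IV had a summed ratio of 1.31. COX1 and COX2, core subunits of cytochrome c oxidase, had 20.3 and 31.3 and 16.7 and 21.3 mean counts in Col-0 and mee45 (log2 ratios 0.60 and 0.35). The ATP synthase genes had the highest mitochondrial class ratio, 1.68 with a counting interval of 1.42 to 2.00. In this class 6 of 6 entries had the higher mean in mee45, with the copies of ATP6 counted as separate entries. ATP1, the alpha subunit, had 12.5 and 34.0 mean counts (1.37, adjusted p of 0.169 per the authors' deposited table). ATP9, a subunit of the membrane rotor, had 24.4 and 29.0 (0.24), and the first copy of ATP6, a membrane subunit beside the rotor, had 14.3 and 21.1 (0.54).

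Ribosomal protein genes of the mitochondrion had a summed ratio of 1.62 over 7 members, of which 4 had the higher mean in mee45 and 3 did not. The most abundant, RPS3, had 21 mean counts in Col-0 and 41.7 in mee45 (log2 ratio 0.96, adjusted p of 0.0851 per the authors' deposited table). Mitochondrial RPL16, a large-subunit protein, had 3.67 and 10.3 mean counts (1.48, adjusted p of 0.0818 in the same deposited table). It reached 10 mean counts in mee45 alone. Cytochrome c maturation genes had a summed ratio of 1.09 with a counting interval of 0.772 to 1.54, and the most abundant of them, CCB452, had 13.7 and 14 mean counts. The 47 open reading frames had a summed ratio of 1.32, with 25 higher and 22 lower means in mee45 at equal depth. Equal mean counts fall on the lower side at equal depth. The most abundant, ORF262, had 10.3 and 14.7 mean counts (log2 ratio 0.49). The 34 other mitochondrial genes had a summed ratio of 1.38, with 26 higher and 8 lower means.

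The 1 mitochondrial call, ORF141, rested on 3.28 mean counts in Col-0 and 0 in mee45 (adjusted p of 0.0349 per the authors' deposited table). ORF141 has a nuclear copy. Chromosome 2 of Col-0 carries an insertion of much of the mitochondrial genome, and 33 mitochondrial members had an annotated copy there, by the best-match notes of the TAIR10.1 annotation. All 33 copies matched the mitochondrial genome at 99% identity or more over the matched length, so reads may match both entries. The ORF141 copy, AT2G07708 (chr2:3386851-3388160), had 8.72 mean counts in Col-0 and 18.3 in mee45. Summed, the pair had 12 and 18.3 mean counts, a ratio of 1.51 at equal depth with a counting interval of 0.972 to 2.36. The direction of the call thus turned when the copy was added.

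Among the copies, 1 was called higher and 0 lower in the authors' deposited table, where 6.67% and 9.15% of all tested genes were. This was AT2G07687 (chr2:3311654-3312651), the copy of COX3, a core subunit of cytochrome c oxidase. It had 4.82 mean counts in Col-0 against 24.9 in mee45, with an adjusted p of 0.00573 per the authors' deposited table. The mitochondrial COX3 entry had 7.85 and 12.1 mean counts and did not pass in the same deposited table (adjusted p of 0.773). Summed, the pair had 12.7 and 37 mean counts, a ratio of 2.88 with a counting interval of 1.98 to 4.28. The first 60 coding bases of both copies are printed as RefSeq gives them for the nuclear genome, because all coding bases of each, 798 for AT2G07687 and 426 for AT2G07708, also occur in the RefSeq mitochondrial genome at 100% identity.
AT2G07687, chr2:3312592-3312651, minus strand: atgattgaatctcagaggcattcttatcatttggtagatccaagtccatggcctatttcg
AT2G07708, chr2:3387351-3387410, plus strand: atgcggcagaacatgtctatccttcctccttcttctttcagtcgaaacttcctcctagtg

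The entries of other pairs differed in several ways. COB, which encodes cytochrome b of complex III, had 4.53 and 1.34 mean counts at its mitochondrial entry and 11.1 and 25.0 at its chromosome 2 entry, so that the sums were 15.7 and 26.3. ATP1 with its copy summed to 54.5 and 96.7 mean counts, a ratio of 1.75. The chromosome 2 entry of the first copy of ATP6 had 3.15 mean counts in Col-0 and 0 in mee45 (adjusted p of 0.0833 per the authors' deposited table). That pair summed to 17.5 and 21.1, a ratio of 1.19 with a counting interval of 0.814 to 1.76. RPSL2, a ribosomal protein gene, had equal values at both entries, 8.5 in Col-0 and 3.83 in mee45, and its summed ratio of 0.445, with a counting interval of 0.259 to 0.741, lay on the Col-0 side. In 5 of the 33 pairs the entries had equal values in both genotypes. In 9 the direction of the mitochondrial entry and of the pair's sum differed, taken at equal depth with no minimum count. Some of these 9 had equal mean counts in both genotypes at the mitochondrial entry or in the sum, which equal depth places on the Col-0 side. Others had under 1 mean count at the mitochondrial entry, so the 9 are not all differences in level.

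The mitochondrial ratio itself moved little with the copies. The 33 members with a copy had a summed ratio of 1.40 and the copies 1.61. The 48 members without an annotated copy had a summed ratio of 1.36, with a counting interval of 1.24 to 1.49, and 32 of them had the higher mean in mee45. These 48 were not searched against the nuclear genome, so some may still share reads with a copy. They include the second copy of ATP6 (8.52 and 16.5 mean counts), whose first copy has a chromosome 2 entry. With all copies added to the 81 members the ratio was 1.44. For the chloroplast, 67 members matched to the annotation were searched, which do not include YCF1. The longest match of such a member at 98% identity or more to the nuclear or mitochondrial genome covered at most 17.2% of its coding length, in ATPI.

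**Figure D4:**
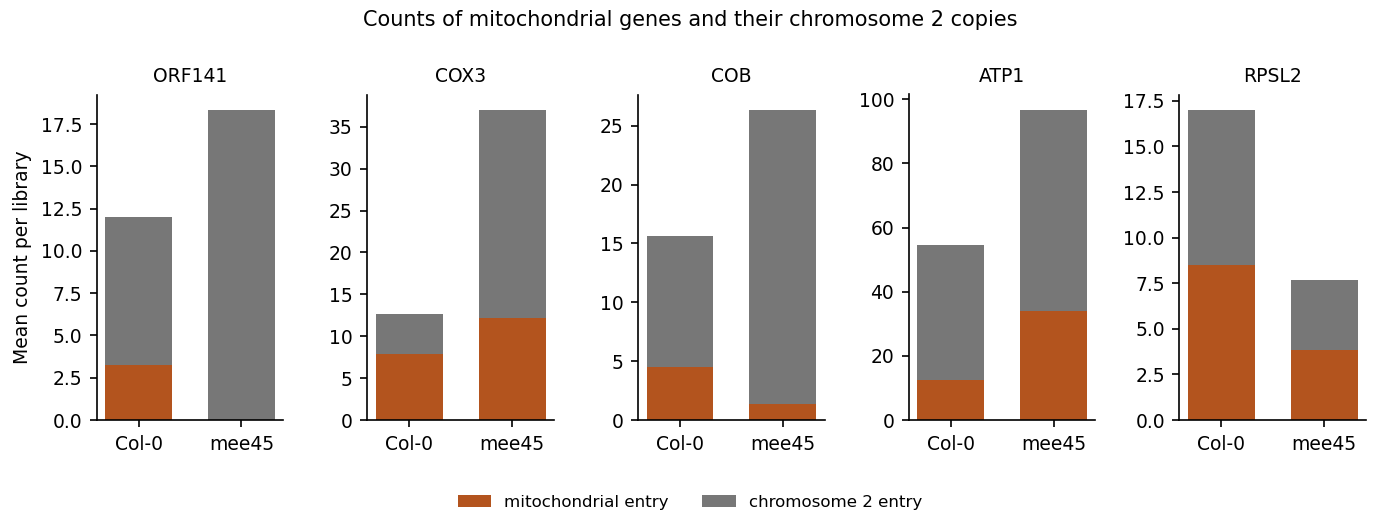
Authors' mean count per library (vertical axes from 0, each panel with its own scale) for 5 mitochondrial genes, with the chromosome 2 copy (grey) stacked on the mitochondrial entry (brown), in Col-0 and mee45. In ORF141 and COB the brown part is smaller in mee45 while the whole bar is taller; in RPSL2 both parts are equal and smaller in mee45.

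Nuclear genes that act with the organelle genomes were read from lists by function, as a measure in the same libraries. Of the 3 phage-type RNA polymerases, 1 rose and 0 fell in the authors' deposited table, against 6.67% and 9.15% of all tested genes. This was RPOTp, the chloroplast enzyme, from 10.3 to 13.9 FPKM (log2 ratio 0.43, adjusted p of 0.00128 per the authors' deposited table). RPOTm, the mitochondrial enzyme, and RPOTmp, found in both organelles, did not pass in the authors' deposited table, with log2 ratios of 0.14 and 0.04. Of the 6 sigma factors, which guide the bacterial-type polymerase to promoters, 1 rose and 1 fell in the authors' deposited table. Of all tested genes, 6.67% rose and 9.15% fell there. SIG2 rose (0.38, adjusted p of 0.0135) and SIG5 fell (-0.44, adjusted p of 0.0291), both in the authors' deposited table. Of the 12 proteins associated with the plastid polymerase, 4 rose and 0 fell in the authors' deposited table, against 6.67% and 9.15% of all tested genes. Among the 4 were PAP7 (0.46, adjusted p of 0.00201), PAP5 (0.36, adjusted p of 0.0104) and PAP6 (0.34, adjusted p of 0.0387), with p-values from the same deposited table. The list median was 0.25, against 0.004 over all tested genes of at least 10 mean counts, and 12 of 12 had the higher mean in mee45.

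Nuclear subunits of the photosynthetic complexes had a median log2 ratio of 0.28, and 31 of 31 had the higher mean in mee45. Of the 31, 10 rose and 0 fell in the authors' deposited table, against 6.67% and 9.15% of all tested genes. RBCS2B and RBCS1B, which encode the small subunit of Rubisco and partner the RBCL product, had log2 ratios of 0.73 and 0.55 (adjusted p of 2.87e-06 and 0.000588 per the authors' deposited table), though reads of these similar copies may be divided between them. PETE1, which encodes plastocyanin, had a log2 ratio of 0.57 (adjusted p of 0.000101 in the same deposited table). The log2 ratio of RBCL was 1.25, and a difference between it and its nuclear partners was not tested.

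Nuclear subunits of the respiratory chain had a median log2 ratio of 0.08 over 23 genes, and 0 rose or fell in the authors' deposited table. At an unadjusted p under 0.05, that deposited table holds 11.4% of all tested genes higher and 13.5% lower. In the list, COX5B-1 and the ATP synthase genes ATPbeta-1 and ATPbeta-3 lay on the mee45 side at this threshold. CYTC-2, a cytochrome c gene, lay on the Col-0 side. The list gene with the smallest p, COX5B-1 of cytochrome c oxidase, had a log2 ratio of 0.29 (adjusted p of 0.0671 in the same deposited table). Of the 23 genes, 19 had the higher mean in mee45. Of 7 genes for processing or decay of organelle RNA, 3 rose and 0 fell in the authors' deposited table, against 6.67% and 9.15% of all tested genes, and the list median was 0.30. These were CSP41A (0.49, adjusted p of 0.00344) and CSP41B (0.37, adjusted p of 0.0363), chloroplast RNA-binding proteins, and cpPNP (0.30, adjusted p of 0.0422), the chloroplast polynucleotide phosphorylase, which adds and removes RNA tails, with p-values from the authors' deposited table. Tail length or tailing of organelle RNA was not measured here.

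**Figure D5:**
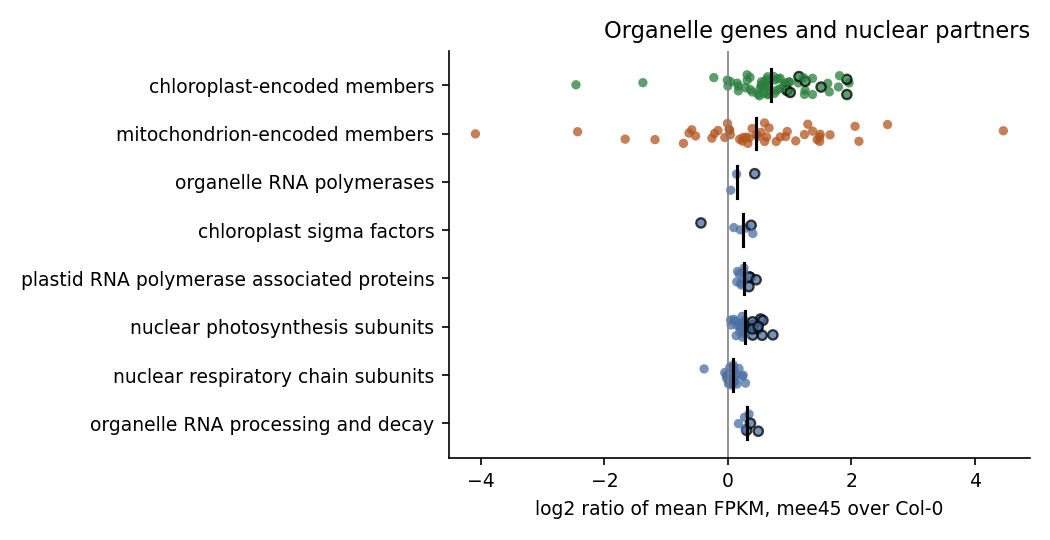
Log2 ratio of mean FPKM (mee45 divided by Col-0) for organelle genes of at least 1 mean count in either genotype and a count in both (green, brown) and for nuclear genes by list (blue). Points are genes, black bars medians, and outlined points have an adjusted p under 0.05 in the authors' deposited table. Medians stand at 0.70 and 0.46 for the organelle genes and at 0.28 and 0.08 for the nuclear photosynthesis and respiratory lists.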

How the data were processed

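RNA of 6 libraries was sequenced as paired ends, per the labels' protocols. Per the submitters' processing notes, TopHat2 2.0.3.12, Bowtie2 2.2.8, fastp 0.18.0, RSEM, Cufflinks and edgeR were used with build TAIR10; their roles, the use of strand in counting and the handling of reads with several matches are not given in the sources used here. Reads of cotranscribed or overlapping neighbours may therefore be shared. The deposited estimated counts and FPKM values are the authors' means per genotype: 95.0% of the Col-0 and 95.1% of the mee45 counts above 0 were whole multiples of 1 count in 3 libraries, within 0.03 summed counts. The authors' deposited comparison gives log2 ratios of mean FPKM, p-values, and adjusted p-values that equal a Benjamini-Hochberg adjustment over 25434 genes. The edgeR fit planned for counts per library could not be run on genotype means, so calls are those of the authors' table at an adjusted p under 0.05.

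Sums, ratios at equal total counts with exact binomial 95% intervals, and medians were computed in Python 3.11.15 with numpy 2.4.6, scipy 1.17.1 and pandas 2.3.3. Copies were compared with BLAST 2.17.0 in the RefSeq TAIR10.1 genome, which also gave coordinates and sequences. The counting interval and the Benjamini-Hochberg adjustment were tested on simulated data, and the other steps were not.

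The members and lists were chosen with earlier results of these data known. Named members are every called gene, the 10 highest mean counts of each organelle, the highest of each class, the 3 largest log2 rises and falls among genes reaching 10 mean counts, up to 3 called genes per nuclear list or else the 1 with the smallest p, and chromosome 2 copies of named mitochondrial genes. ATPF, PSBK, PSBN, PSBE, RPOA, RPS2, COX3, COB, RPSL2, the second copy of ATP6, RPOTm, RPOTmp, ATPbeta-1, ATPbeta-3, CYTC-2, LEC1, SHP1, IND, BAN and FUL were named after their values were seen. For the rises and falls, the minimum of 10 had to be met in only 1 genotype, which favours genes that are high there. Alternatives covered thresholds, scaling, pseudocount, minimum counts and the members summed.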

Additional observations from a re-analysis of the deposited data

How the results depend on the processing

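The summed ratios and medians kept their direction under every alternative run. Calls at an adjusted p under 0.01 in the authors' deposited table numbered 3 for the chloroplast and 0 for the mitochondrion. The 3 include both of the equal YCF2 entries, and the share of all tested genes at 0.01 was not computed. With no adjustment and p under 0.05 there were 21 and 9, where 11.4% of all tested genes were higher and 13.5% lower. The chloroplast ratio of 1.97 became 1.85 without PSBA and 1.68 without PSBA and RBCL, the latter chosen after seeing the data, as were adding the chromosome 2 copies, counting identical copies once and using the authors' own mark of significance. With log2(FPKM + 1) the chloroplast median was 0.26 and the mitochondrial 0.14, since most members lie under 1 FPKM. The mitochondrial median was 0.35 with no minimum count and 0.57 with at least 10 in either genotype. A minimum met in either genotype, at 10 or at 1, can admit a gene only through the genotype where it is high. Of 34 named members with a fold, 10 left their own 95% counting interval with log2(FPKM + 1). Scaling count ratios to library totals could take none out of it, because the intervals are built on those totals. Scaling to the nuclear median ratio shifted every log2 ratio by only 0.0055, and 0 members left. Neither scaling therefore tests these ratios. These alternatives were also chosen after seeing the data. Leaving out ribosomal and transfer RNA genes removed no gene. No paired analysis was possible because the values are genotype means, and for the same reason leaving out each library and the replicate block were not run. Depth limits most members: only 33 of 71 chloroplast and 15 of 81 mitochondrial genes had a mean count of at least 10 over both genotypes. Under 1 mean count in both genotypes were 8 chloroplast and 30 mitochondrial genes.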
